A study of Homo sapiens with 132 samples.

Results

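The genes described here are 54 genes of mitosis and the kinetochore, followed through every treatment of 4 gastric cancer cell lines. They were taken by name from a fixed list of symbols, without a cut on a measured value, but with earlier results of these data known. All 54 were found among the 65217 Ensembl gene identifiers of the count tables. SMC4, a condensin subunit, had 0 counts in every library, also in untreated cells, as did all 37 mitochondrial gene identifiers; why these rows were at 0 was not tested, and the 0 is not read as an absent transcript. The other 53 members were measured and each of them passed the filter on low counts in every cell line. The study asked how drugs against the HER receptors change gene expression in gastric cancer cells. All 4 lines had untreated cultures and cultures with afatinib at 0.5 μM, with trastuzumab at 5 μg/ml, or with the combination of these. MKN1 and Hs746T cells had further cultures with the ligand EGF at 5 ng/ml, with cetuximab at a dose of 1 μg/ml, and with EGF and cetuximab together. RNA was sequenced after 4 h and 24 h, with 3 replicates for each of the 44 conditions. EGF is a ligand of the receptor EGFR, cetuximab is an antibody against EGFR, trastuzumab is an antibody against HER2, and afatinib is a small molecule that blocks the kinase activity of the HER family. All are established lines from metastases of gastric carcinomas. They were grown with serum, in RPMI medium (MKN1, MKN7, NCI-N87) or DMEM (Hs746T), and the medium was renewed before treatment. The control for afatinib was untreated cells, so its solvent DMSO was present in the treated and absent from the control libraries analysed here. Within a cell line and time point every treatment was compared with the same 3 untreated libraries.

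Mitosis is started by the kinase CDK1 together with cyclins A and B, and is carried forward by the kinases PLK1, AURKA and AURKB. Kinetochores, built on centromeric chromatin that holds the histone variant CENPA, attach the chromosomes to spindle microtubules, and the spindle checkpoint (BUB1, BUB1B, BUB3, MAD2L1, TTK) holds back the anaphase-promoting complex until attachment is complete. CDC20 and UBE2C then work with that complex to mark securin (PTTG1) and the B cyclins for destruction, and KIF23, RACGAP1, ECT2, ANLN and PRC1 serve cytokinesis. Most of these genes are transcribed from late S phase to mitosis, under the repressive DREAM complex and the activators MYB-MuvB and FOXM1, through a cell cycle homology region (TTTGAA or a close variant) and CCAAT boxes that bind NF-Y. Their mRNA is therefore low in resting cells and high in dividing cell populations.

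These promoter elements are shown because most of the members share them. The bases upstream of the start of transcription are given 5′ to 3′ on the strand of the gene, 250 for each, from RefSeq on build GRCh38.p14. After 24 h afatinib in NCI-N87 cells CDK1 was among the members with the larger falls and CCNB2 among those with the smaller ones. TOP2A lay nearer to the median of the members. PLK1 was the member with the largest fall in MKN1 cells. The 4 were picked with their values known. Capitals mark TTTGAA, its variant TTTAAA and CCAAT, each searched on either strand (TTCAAA and ATTGG are the reverse complements of TTTGAA and CCAAT).
CDK1 (chr10:60778081-60778330, plus strand): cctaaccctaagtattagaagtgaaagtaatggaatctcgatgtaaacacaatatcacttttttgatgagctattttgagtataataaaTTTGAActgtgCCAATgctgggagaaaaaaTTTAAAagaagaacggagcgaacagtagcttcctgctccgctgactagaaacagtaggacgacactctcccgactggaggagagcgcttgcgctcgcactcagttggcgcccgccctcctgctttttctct
CCNB2 (chr15:59104896-59105145, plus strand): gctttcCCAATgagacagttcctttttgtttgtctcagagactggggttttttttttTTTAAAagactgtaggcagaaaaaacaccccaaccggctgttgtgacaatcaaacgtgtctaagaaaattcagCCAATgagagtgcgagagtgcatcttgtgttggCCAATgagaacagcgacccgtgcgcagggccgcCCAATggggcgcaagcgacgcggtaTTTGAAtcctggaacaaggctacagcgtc
PLK1 (chr16:23678639-23678888, plus strand): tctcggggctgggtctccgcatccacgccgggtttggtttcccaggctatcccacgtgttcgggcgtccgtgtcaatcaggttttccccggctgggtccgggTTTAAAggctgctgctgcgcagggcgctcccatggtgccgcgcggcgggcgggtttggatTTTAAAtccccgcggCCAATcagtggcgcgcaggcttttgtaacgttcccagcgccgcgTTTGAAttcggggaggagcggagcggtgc
TOP2A (chr17:40417897-40418146, minus strand): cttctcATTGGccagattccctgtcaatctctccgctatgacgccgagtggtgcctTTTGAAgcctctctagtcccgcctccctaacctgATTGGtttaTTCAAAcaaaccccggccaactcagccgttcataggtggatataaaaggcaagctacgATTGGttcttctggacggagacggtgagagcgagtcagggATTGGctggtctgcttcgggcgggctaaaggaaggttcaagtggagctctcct
In CDK1 the TTTGAA began 161 bases before the start, with a single CCAAT at 150 and a TTTAAA between that and the start. In CCNB2 the TTTGAA lay 29 bases before the start, below CCAAT boxes at 54, 87, 120 and 244. PLK1 had TTTGAA at the same distance of 29 bases and TOP2A had 4 CCAAT boxes, all in the reverse orientation. Windows of 250 bases before to 50 bases after the start were at hand for 45 of the 54 members. TTTGAA was present in 31 of the 45 (68.9%), against 15.2% of all 35116 promoter windows. TTTAAA was present in 31.1% of the members' windows, against 12.2% of all. At least 1 CCAAT box was present in 75.6%, against 34.6%. TTTGAA or TTTAAA together with at least 2 CCAAT boxes was found in 21 of the 45 windows (46.7%), against 2.73% of all windows. A match of these letters is a description of the window and says nothing about binding of a factor in these cells.

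Total counts per library ranged from 25832557 to 69434151 (median 50725775), and 3 counts corresponded to 0.0432 CPM (counts scaled to a fixed library total) in the deepest and 0.116 CPM in the shallowest library. The 54 genes held between 0.415% and 1.197% of all counts. Epithelial markers (EPCAM, CDH1, KRT8, KRT18, KRT19) summed to 11007 to 23132 CPM in NCI-N87, 4420 to 6760 CPM in MKN7 and 14632 to 21221 CPM in MKN1 libraries, but only to 454 to 721 CPM in Hs746T libraries, where fibroblast markers (COL1A1, COL1A2, DCN, LUM, PDGFRB) summed to 494 to 893 CPM with DCN under 1 CPM and endothelial markers (PECAM1, VWF, CDH5) to 79.5 to 284 CPM with VWF and CDH5 under 1 CPM. After 24 h afatinib the summed epithelial markers went from between 17763 and 20644 CPM to between 11276 and 12886 CPM in NCI-N87 cells (3 of 5 lower, KRT18 by a log2FC of −1.87) and from between 5804 and 6563 CPM to between 4420 and 5152 CPM in MKN7 cells (4 of 5 lower). The summed fibroblast markers went from between 12.2 and 18.8 CPM to between 26.8 and 31.6 CPM in NCI-N87, from between 14.6 and 20.1 CPM to between 23.1 and 28.8 CPM in MKN7, and from between 92.5 and 186 CPM to between 352 and 395 CPM in MKN1 cells, where LUM gave a log2FC of 1.36. Endothelial markers were higher for 2 of 3 genes in NCI-N87 cells, with sums of at most 4.28 CPM, and 0 markers of any list passed in Hs746T cells. The summed fibroblast markers of Hs746T cells nevertheless went from between 656 and 723 CPM to between 494 and 554 CPM. The part of these marker changes in the mitotic results was not tested. Leukocyte markers never exceeded a summed 10.8 CPM. In MKN1 cells their sum went from between 5.93 and 6.92 CPM to between 9.45 and 10.8 CPM after 24 h afatinib, with 1 gene called higher. The ERK target genes EGR1, SPRY4 and DUSP6 were read as a check that afatinib acted: after 24 h they were lower in NCI-N87 (SPRY4 log2FC −6.05), MKN7 (−5.07) and MKN1 cells (−4.50), and SPRY4 gave −0.01 in Hs746T cells. In bulk RNA, fewer dividing cells and less mitotic mRNA in each dividing cell cannot be told apart, and this holds for each change described below.

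In untreated cells at 24 h levels per kilobase of exon were highest for CKS2, which binds cyclin-dependent kinases, in NCI-N87 (183 ± 11.1 RPKM, SD, n = 3) and MKN1 (245 ± 35.5 RPKM), and for UBE2C, the ubiquitin-conjugating enzyme of the anaphase-promoting complex, in MKN7 (296 ± 68.0 RPKM) and Hs746T (241 ± 22.3 RPKM). PRC1, the bundler of midzone microtubules, had the lowest RPKM in each line (2.30 to 3.02). The gene overlaps PRC1-AS1 on the opposite strand, and whether reads were lost to that overlap was not tested. Of the 52 neighbours in this order, only 15 in NCI-N87, 9 in MKN7, 15 in MKN1 and 12 in Hs746T cells were further apart than the larger of their SDs. The highest gene and the next were not that far apart in MKN7, MKN1 and Hs746T cells, so the highest gene is not resolved there. The ratio of the highest to the lowest line, on the CPM of the untreated libraries at 24 h, had a median of 1.98 over the members and ranged from 1.24 to 5.30. It was under 2 for 27 members, between 2 and 4 for 24, and above 4 for UBE2C (4.27) and AURKB (5.30), the kinase of the chromosomal passenger complex. AURKB averaged 189.9 CPM in Hs746T, 156.7 CPM in MKN7, 102.4 CPM in MKN1 and 35.9 CPM in NCI-N87 cells.

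Treatment with afatinib for 24 h lowered nearly all mitotic genes in NCI-N87 cells. With an adjusted p below 0.05 (edgeR, adjusted over all genes of the line) 50 of 53 members were lower and 0 were higher, where 31% of all 19078 genes tested were lower. With a fall of more than 2-fold in addition, 32 members were lower, against 11.5% of all genes, which was 14 with library size alone and 21 without the first afatinib library. The median log2 fold change (log2FC) of the members was −1.04 and that of all genes 0.03. The members fell from 0.771% to 0.839% of the counts in untreated libraries to 0.415% to 0.476% after afatinib.

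CDK1, the kinase of mitotic entry, measured 183, 180 and 187 CPM in the untreated NCI-N87 libraries and 44.2, 48.6 and 63.4 CPM after afatinib. All treated libraries lay below all untreated ones (log2FC −1.82, SE 0.17, adjusted p = 4.57e-09 by edgeR). The lowest log2FC was that of MAD2L1, the checkpoint protein that inhibits CDC20. It measured 120.3, 125.9 and 144.5 CPM (untreated) and 27.3, 32.2 and 44.2 CPM (afatinib), with no overlap (log2FC −1.91, SE 0.19, adjusted p = 1.68e-08). Its partner BUB3 went from 206, 203 and 216 CPM to 112.1, 119.7 and 143.4 CPM (log2FC −0.74). The smallest change was that of CDC25C, a phosphatase that activates CDK1, which read 21.2, 17.7 and 21.7 CPM untreated and 16.9, 18.3 and 24.2 CPM treated. Its groups overlapped (log2FC −0.03, adjusted p = 0.841). CCNB2 (log2FC −0.40, adjusted p = 0.0533) and PTTG1 (−0.55, adjusted p = 0.0532) were the other 2 members that did not pass.

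Other genes of the same NCI-N87 comparison were distributed over every role. FOXM1, an activator of the late cell cycle genes, fell from 103.7, 97.09 and 113.7 CPM to 35.97, 33.62 and 43.74 CPM (log2FC −1.47, SE 0.09). MKI67, which coats mitotic chromosomes and is the Ki-67 proliferation antigen, fell from 788, 858 and 982 CPM to 278, 292 and 295 CPM (log2FC −1.60). TOP2A, the topoisomerase that disentangles sister chromatids, fell from 857, 880 and 993 CPM to 351, 403 and 419 CPM (log2FC −1.22). No treated library of these 3 genes came near the lowest untreated one. AURKB fell from 38.5, 36.2 and 36.6 CPM to 13.5, 10.9 and 17.5 CPM (log2FC −1.41). CCNB1, the main mitotic cyclin, fell from 309, 281 and 322 CPM to 134.2, 138.8 and 179.6 CPM (log2FC −1.01). PLK1 fell from 178, 168 and 199 CPM to 79.24, 80.42 and 110.3 CPM, and CDC20 from 248, 220 and 273 CPM to 115.4, 117.2 and 163.3 CPM (log2FC −1.01 and −0.91). The third treated library was the highest of its group for each of these 4 genes, yet stayed below the untreated libraries. By role, all 5 checkpoint genes, all 9 genes of the centromere, kinetochore and chromosomal passenger complex, all 11 motors and spindle proteins and all 6 cytokinesis genes were lower. The cytokinesis genes had a median log2FC of −1.18, with ANLN, a scaffold of the contractile ring, at −1.72 and KIF20A, a kinesin of the midzone, at −0.32.

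In MKN7 cells afatinib lowered every measured mitotic gene after 24 h, with a smaller median fall than in NCI-N87 cells. All 53 members were lower at an adjusted p below 0.05 (25% of all 18483 genes). Only 4 passed the fold limit as well (3.25% of all genes): PSRC1, AURKB, PLK1 and MAD2L1. That count was 2 without the second afatinib or the third untreated library, 7 without the third afatinib library, and 9 without the second untreated library. The median log2FC was −0.71, against 0.04 for all genes. PSRC1, a protein of the spindle and its midzone, was lowest, with 26.04, 22.36 and 27.74 CPM untreated and 11.4, 10.1 and 10.9 CPM after afatinib (log2FC −1.24, SE 0.10, adjusted p = 6.33e-09 by edgeR). CDC25C had the smallest fall, from 37.8, 34.4 and 32.1 CPM to 29.8, 28.3 and 29.8 CPM (log2FC −0.25, adjusted p = 0.0127). CDK1 fell from 103.8, 97.35 and 119.3 CPM to 61.01, 58.92 and 71.34 CPM (log2FC −0.74), and AURKB from 138.1, 131.9 and 180.4 CPM to 65.46, 57.96 and 79.89 CPM (−1.15). The AURKB value of the third replicate was the highest of its group in the untreated and in the treated libraries. PLK1 fell from 233, 205 and 252 CPM to 118.7, 98.67 and 114.3 CPM (−1.06), and TOP2A from 1460, 1578 and 1436 CPM to 862, 868 and 858 CPM (−0.79). The TOP2A values after afatinib lay close to each other. MKI67 fell from 442, 473 and 364 CPM to 235, 213 and 212 CPM (−0.95), and FOXM1 from 58.5, 54.3 and 53.7 CPM to 32.6, 28.1 and 31.7 CPM (−0.85). CDC20 fell from 475, 386 and 461 CPM to 295, 237 and 278 CPM (−0.71). CCNB1 fell from 245, 221 and 256 CPM to 157.4, 138.3 and 156.1 CPM (−0.68). BUB3, a checkpoint protein that brings BUB1 to the kinetochore, fell from 175, 165 and 211 CPM to 115.2, 111.9 and 129.4 CPM (−0.63). By role, medians ran from −0.58 for the cytokinesis genes to −0.79 for the genes of the centromere, kinetochore and chromosomal passenger complex.

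In MKN1 cells most of the mitotic genes were lower after 24 h afatinib, none by as much as 2-fold. Of the members 42 were lower and 0 higher (13.3% of all 19815 genes were lower). The median log2FC was −0.43, against 0.01 for all genes. PLK1 was lowest, from 275, 324 and 318 CPM to 183.7, 233.3 and 147.9 CPM (log2FC −0.70, SE 0.12, adjusted p = 5.56e-05 by edgeR). CDC25B, which activates CDK1 at the centrosome, changed least, with 406, 375 and 446 CPM untreated and 386, 369 and 419 CPM treated (log2FC −0.06, adjusted p = 0.716), and its groups overlapped. CCNB1 fell from 423, 495 and 445 CPM to 282, 381 and 227 CPM (−0.62), and CDK1 from 105.9, 120.6 and 119.3 CPM to 75.3, 97.8 and 70.7 CPM (−0.50). Of these genes the second treated library was the highest and the third the lowest, except for CDC25B. MKI67, with 548, 416 and 588 CPM untreated and 433, 382 and 301 CPM treated, overlapped between the groups and did not pass (log2FC −0.47, adjusted p = 0.0704). FOXM1 was between 87 and 88.1 CPM in untreated and between 55.4 and 79.8 CPM in treated libraries (−0.33, adjusted p = 0.0117). AURKB fell from 90.78, 113.5 and 103.5 CPM to 63.75, 88.13 and 54.04 CPM (−0.58) and CDC20 from 323, 372 and 327 CPM to 224, 289 and 165 CPM (−0.59). TOP2A fell from 1057, 891 and 1114 CPM to 782, 757 and 612 CPM (−0.51), and BUB3 from 149.5, 163.5 and 152.7 CPM to 120.8, 133.2 and 107.2 CPM (−0.37). The third treated library was the lowest for each of these 4 genes, and none of them overlapped between the groups. All 4 mitotic kinases and all 5 checkpoint genes were lower, but only 4 of the 9 cyclins and CDK1 regulators. Without the third afatinib replicate 27 members were lower, and 23 were lower when only the 6 libraries of this comparison were fitted.

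In Hs746T cells 0 members passed the test after 24 h afatinib, as did 0 of all 18667 genes (0%). At an unadjusted p below 0.05 there were 0 members and 330 genes, and DESeq2 called 0 members. The log2FC of the members ran from −0.08 (KIF23) to 0.14 (CKS2), with a median of 0.02. CDK1 measured 308, 338 and 350 CPM untreated and 295, 333 and 345 CPM treated, PLK1 177, 167 and 168 CPM and 174, 158 and 186 CPM, and the groups overlapped for all 53 members. KIF23, a motor of the central spindle, read 176.3, 162.3 and 144.1 CPM untreated and 165.4, 156.6 and 133.8 CPM treated. CKS2 read 130.1, 132.1 and 150.9 CPM untreated, and 129.8 CPM (the first) and 182 CPM (the third library) treated, with the second between them. The untreated and treated libraries of both genes overlapped. The members held 0.980% to 1.03% of the counts in untreated and 0.967% to 1.06% in afatinib-treated libraries.

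**Figure D1:**
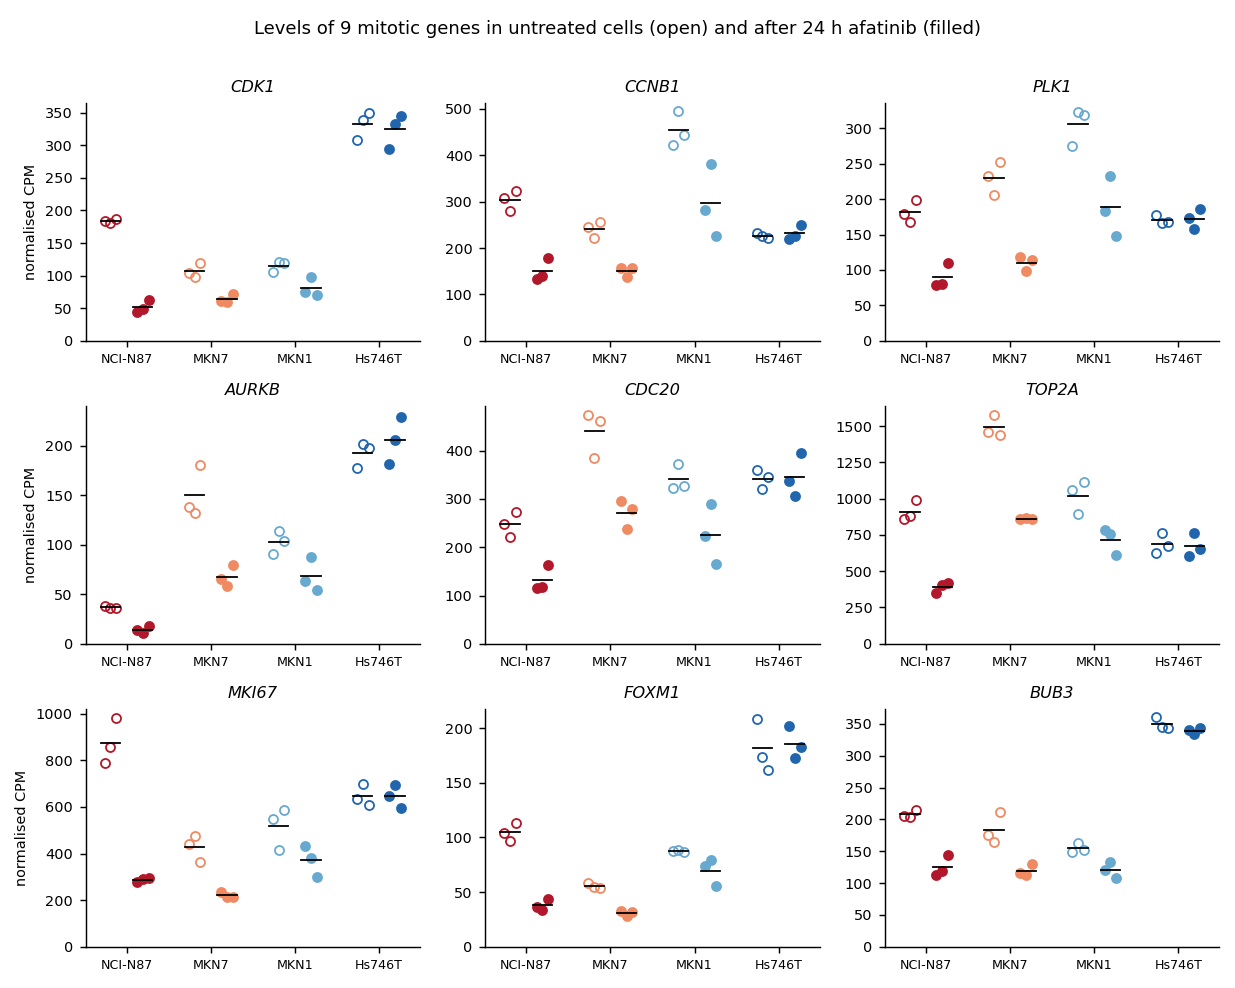
Normalised CPM (y axis) of 9 mitotic genes in the 4 cell lines at 24 h, with a point for each library, open for untreated and filled for afatinib, and a bar at the mean of 3 replicates. CDK1 lies between 180 and 187 CPM in untreated and between 44.2 and 63.4 CPM in treated NCI-N87 libraries, whereas open and filled points of Hs746T cells overlap for each gene.

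**Figure D2:**
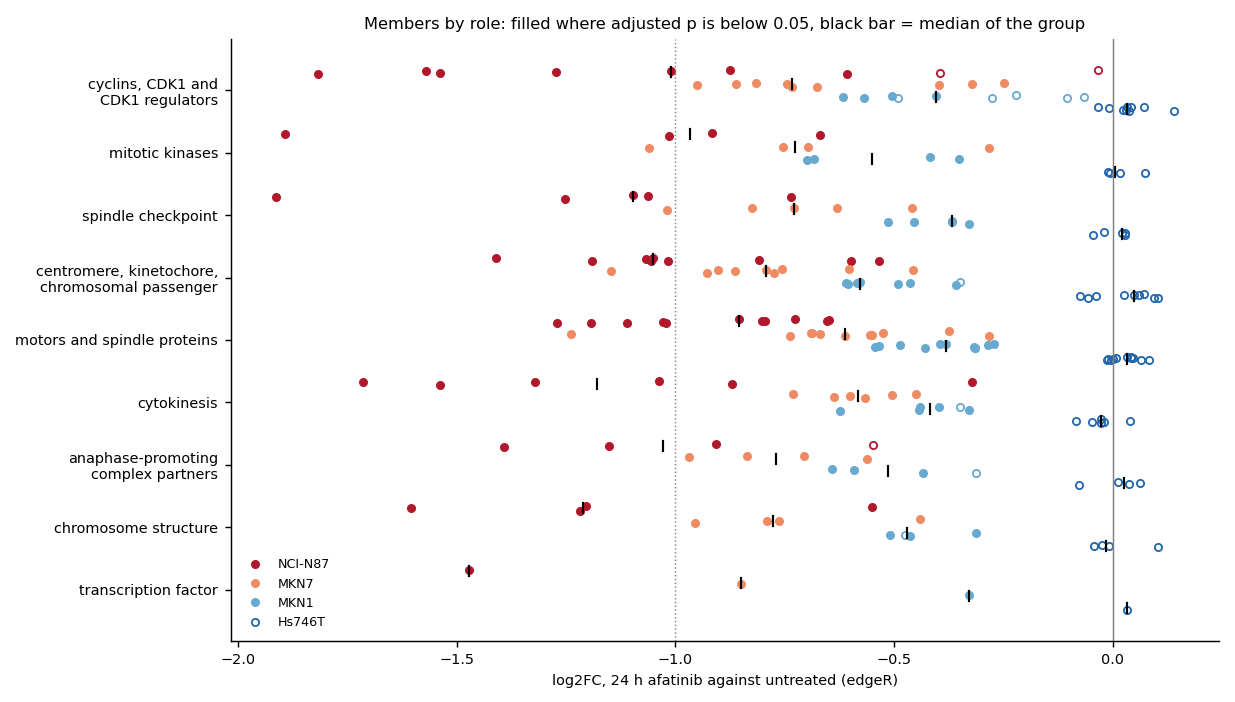
The log2FC of 24 h afatinib against untreated (x axis) for each member, arranged by role (y axis) and coloured by cell line, filled where the adjusted p is below 0.05, with a black bar at the median of each role group. NCI-N87 points reach −1.91 (MAD2L1), MKN7 points −1.24 (PSRC1) and MKN1 points −0.70 (PLK1), and all Hs746T points are open and lie around 0.

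Whether the fall after 24 h differed between cell lines was tested in a joint fit of all libraries. The fall was larger in NCI-N87 than in MKN7 cells for 21 of 53 members (12.7% of all 22832 genes), and smaller for 1, PSRC1 (8.69% of all genes; difference 0.61, SE 0.23, adjusted p = 0.0477 by edgeR). The largest differences in log2FC were those of ANLN (−1.12, SE 0.15, adjusted p = 1.19e-09), the kinase MELK (−1.11, SE 0.14) and CDK1 (−1.05, SE 0.19). ECT2, the exchange factor that activates RhoA at the cleavage furrow, followed with −0.88 and MAD2L1 with −0.87. The median difference over the members was −0.31 and that over all genes −0.03. MKN7 cells had a larger fall than MKN1 cells for 4 members, PSRC1 (−0.71), FOXM1 (−0.53), CCNF (−0.42) and the AURKA activator TPX2 (−0.35), against 3.94% of all genes. MKN1 cells had a larger fall than Hs746T cells for 14 members (2.41% of all genes), led by AURKA (−0.75, SE 0.12, adjusted p = 1.1e-05), PLK1 (−0.70) and the passenger protein BIRC5 (−0.70). When only the compared groups were fitted, 0 members passed for MKN7 against MKN1 and 0 for MKN1 against Hs746T cells. With the replicate number as a block these counts were 33 lower and 2 higher, 21 lower and 43 lower. Calls over all 22832 genes rose with the block too, to 4631 lower and 3308 higher, 2494 lower and 2150 lower. Without replicate 3 the count for MKN1 against Hs746T cells was 1 and that for NCI-N87 against MKN7 cells 8, which was 11 without replicate 1, while the count for MKN7 against MKN1 cells was 1 without replicate 1 and 0 without replicate 2. PSRC1 was not called without replicate 2 or replicate 3. Across the 53 members the log2FC at 24 h had a Pearson r of 0.49 (Spearman rho 0.50) between MKN7 and NCI-N87, 0.70 (0.71) between MKN7 and MKN1 and 0.31 (0.29) between NCI-N87 and MKN1 cells. These are descriptions across genes, which are not independent replicates and share their depth and the scaling of their libraries.

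After 4 h of afatinib, in contrast to 24 h, a part of the mitotic genes was higher than in untreated NCI-N87 and MKN7 cells. In MKN7 cells 27 members were higher and 0 lower (10.1% of all genes were higher), with a median log2FC of 0.22 against 0.01 for all genes. In NCI-N87 cells 17 members were higher (9.06% of all genes) and 1, ECT2, was lower (9.10% of all genes), with a median of 0.16 against 0.02. The count of 17 was 27 with library size alone and 11 without the third afatinib library. CDC25C had the largest rise in each of these lines. In NCI-N87 cells it measured 19.7, 21.6 and 23.6 CPM untreated and 42.3, 42.3 and 49.2 CPM after 4 h (log2FC 1.04, SE 0.13, adjusted p = 5.4e-06 by edgeR). In MKN7 cells it measured 24.7, 28.6 and 27.4 CPM and 49.02, 54.57 and 56.54 CPM (log2FC 0.99, SE 0.08, adjusted p = 1.89e-08). Every treated library exceeded every untreated one in each line, by more than the spread within either group. KIF20A went from 90.37, 86.37 and 100.7 CPM to 152.3, 136 and 162.2 CPM in NCI-N87 cells (0.70) and from 146.6 CPM (the first), 146.3 CPM (the second) and a lower value (the third library) to 249, 229 and 237 CPM in MKN7 cells (0.76). NDC80, which holds kinetochores on microtubules, went from 102.7, 108.5 and 112 CPM to 178, 167 and 192 CPM in NCI-N87 cells (0.73) and rose by a log2FC of 0.64 in MKN7 cells. ASPM, a protein of the spindle poles, rose by 0.64 and 0.61 and the kinetochore protein CENPF by 0.57 and 0.45 in NCI-N87 and MKN7 cells. ECT2 fell in NCI-N87 cells from 408, 421 and 401 CPM to 338, 326 and 339 CPM (−0.29, adjusted p = 0.009) and rose by 0.23 in MKN7 cells. The lowest MKN7 value was that of CDC20, with a log2FC of −0.04 (adjusted p = 0.875) and overlapping groups.

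The early risers came from most roles. In MKN7 cells 7 of the 11 motors and spindle proteins and 6 of the 9 genes of the centromere, kinetochore and chromosomal passenger complex were higher, but 0 of the 4 partners of the anaphase-promoting complex. In NCI-N87 cells the counts were 4 of 11, 5 of 9 and 0 of 4. Members raised in both lines numbered 15, which is 55.6% of those raised in MKN7 and 88.2% of those raised in NCI-N87 cells. The log2FC at 4 h had a Pearson r of 0.85 (Spearman rho 0.78) between the 2 lines across the 53 members. In MKN1 cells 2 members were higher after 4 h (1.27% of all genes): CDC25C, from 15.6, 15.9 and 14.6 CPM to 19.8, 19.8 and 20.8 CPM (log2FC 0.39, adjusted p = 0.0198), and HMMR, a spindle assembly protein, from 47.4, 48.5 and 46.3 CPM to 60.3, 55.8 and 62.1 CPM (0.33, adjusted p = 0.0416). Neither gene overlapped between the groups, and neither passed when only the 6 libraries of this comparison were fitted, while 4 members passed with the replicate block. Without the third afatinib or the first or the third untreated library 0 passed, and 1 passed without the first afatinib or the second untreated library. CDC20 had the lowest value in MKN1 cells (−0.19, adjusted p = 0.688). In Hs746T cells 0 members passed at 4 h (0% of all genes), with 7 members and 1371 genes at an unadjusted p below 0.05 and 0 members by DESeq2. The difference between lines at 4 h passed for ECT2 between NCI-N87 and MKN7 cells (−0.57, SE 0.13; 0.499% of all genes), and for CDC25C (0.62) and AURKA (0.44) between MKN7 and MKN1 cells (0.622% of all genes). With the replicate block these counts were 2 and 12, where 745 of all 22832 genes were lower and 810 higher. ECT2 was not called without any 1 replicate number, and for MKN7 against MKN1 cells 0, 0 and 1 members were called without replicate 1, 2 and 3. Between MKN1 and Hs746T cells 0 members passed (0.372% of all genes), with 7 at an unadjusted p below 0.05 and 0 by DESeq2. The replicate block gave 6, all higher, where 854 of all genes were higher.

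The effect of afatinib was lower at 24 h than at 4 h for 51 members in NCI-N87 (20.5% of all genes), 53 in MKN7 (9.28%) and 27 in MKN1 cells (1.43%), by a test of the difference itself, and for 0 in Hs746T cells, where 0 members had an unadjusted p below 0.05 and DESeq2 called 0. In MKN1 cells this count was 47 with the replicate number as a block and 0 when only the compared groups were fitted, and it was 6 without the third 24 h afatinib library, 11 without the third untreated library of 24 h, 15 without the second untreated library of 4 h, 12 without the first 4 h afatinib library, and 13 without the third one or without the first or the third untreated library of 4 h. CDC25C, whose log2FC in NCI-N87 cells was 1.04 at 4 h and −0.03 at 24 h, had a difference of −1.08 (SE 0.18, adjusted p = 0.000105 by edgeR) in that line, −1.24 in MKN7 and −0.49 in MKN1 cells. MELK had the lowest value in NCI-N87 (−1.96), PSRC1 in MKN7 (−1.49) and the kinetochore motor CENPE in MKN1 cells (−0.72). Members with a higher log2FC at 4 h also had a less negative log2FC at 24 h (Pearson r across members 0.62 in NCI-N87, 0.57 in MKN7 and 0.50 in MKN1 cells). The 17 members that rose early in NCI-N87 cells had a median log2FC of −0.80 at 24 h and the other 36 of −1.09. In MKN7 cells the 27 early risers had a median of −0.64 and the other 26 of −0.76.

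**Figure D3:**
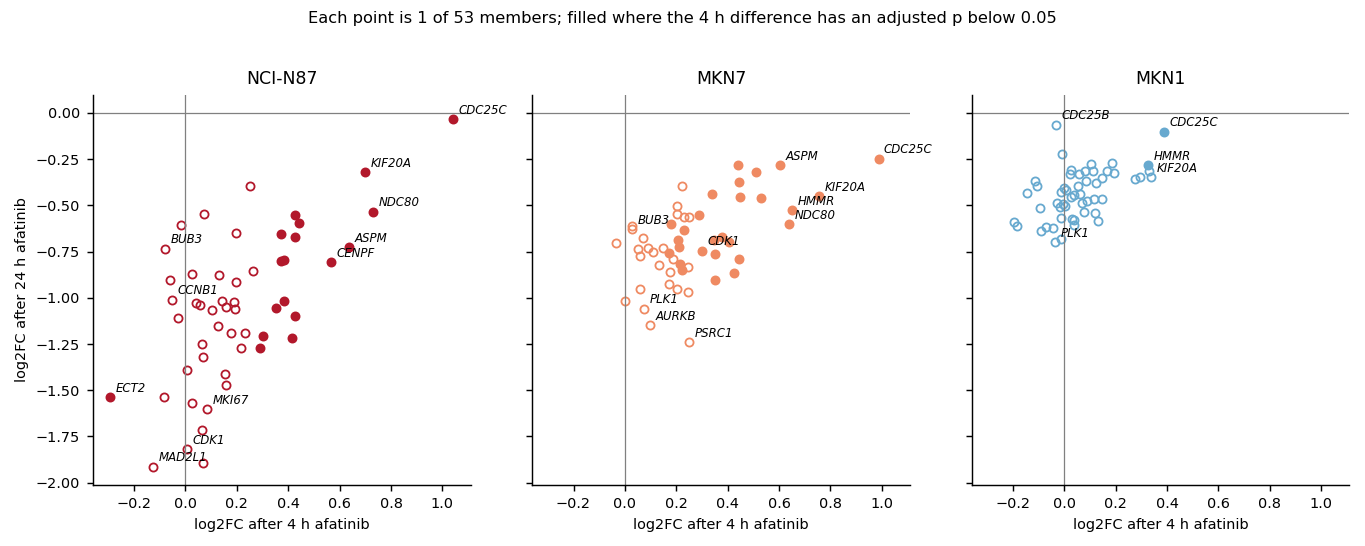
The log2FC of afatinib against untreated after 4 h (x axis) and 24 h (y axis) for the 53 members in NCI-N87, MKN7 and MKN1 cells, filled where the 4 h value has an adjusted p below 0.05. All points lie below 0 at 24 h, and CDC25C is the point farthest to the right in each panel (1.04 and −0.03 in NCI-N87 cells).

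CDC25C and KIF20A are near each other on chromosome 5, with 97.5 kb between them, and each overlaps other coding genes on the opposite strand. KIF20A overlaps BRD8, whose log2FC at 4 h was 1.14 in NCI-N87 and 0.97 in MKN7 cells, and CDC23 (0.25 and 0.10). CDC25C overlaps FAM53C (0.33 and 0.19). The libraries were directional, but whether the counts used the strand is not given in the sources used here, so a part of the early rise of KIF20A and CDC25C that comes from reads of these neighbours was not tested. In all, 31 members overlap another annotated gene, 14 a coding one, and for BUB1B (with BUB1B-PAK6) and CENPA (with SLC35F6) that gene lies on the same strand.

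With trastuzumab alone no change of a mitotic gene was called in any of the 4 lines. After 24 h 0 members and 0% of all genes passed in each line, with 2 members at an unadjusted p below 0.05 in NCI-N87, 1 in MKN7 and 0 in MKN1 and Hs746T cells, and 0 members by DESeq2. The count was also 0 in each line with the replicate number as a block, with 6 members at an unadjusted p below 0.05 in NCI-N87 and 5 in MKN7 cells. In MKN7 cells at 24 h 51 of the 53 members had a log2FC below 0 (median −0.07). Without overlap between the groups 10 were lower and 0 higher at 24 h, but 0 lower and 5 higher at 4 h. Neither the sign of the log2FC nor the overlap was counted over all genes, so no trend is read from these counts. The members held 0.954% to 1.009% of the counts in untreated and 0.916% to 0.964% in trastuzumab libraries of MKN7 cells at 24 h. The most negative value in NCI-N87 cells was that of MKI67 (−0.26), with overlapping groups. Trastuzumab + afatinib lowered 52 members in NCI-N87 (32% of all genes), 52 in MKN7 (25.1%) and 44 in MKN1 cells (14.1%), with medians of −1.13, −0.71 and −0.44. The MKN1 count was 28 with library size alone and also without the third library of the combination. MAD2L1 was again lowest in NCI-N87 (−2.01), PSRC1 in MKN7 (−1.19) and CDCA3 in MKN1 cells (−0.82). Compared directly with afatinib alone at 24 h, the combination differed for 0 members in every line (0% of all genes), with 0 members at an unadjusted p below 0.05 and 0 by DESeq2. In this direct comparison the log2FC of the members stayed between −0.17 and 0.02 in NCI-N87, between −0.08 and 0.08 in MKN7 and between −0.25 and 0.12 in MKN1 cells.

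Cetuximab and EGF were tested in MKN1 and Hs746T cells. In MKN1 cells cetuximab lowered 25 members after 24 h (5.91% of all genes), with a median log2FC of −0.30 against 0.01 for all genes, and raised 0. CDCA3, a mitotic entry protein, was lowest, with 38.4, 49.5 and 40.3 CPM untreated and 31.01, 28.05 and 24.9 CPM after cetuximab (−0.61, SE 0.18, adjusted p = 0.0247 by edgeR). AURKA fell from 217, 228 and 231 CPM to 166.5, 166.4 and 138.5 CPM (−0.52), and PLK1 from 275, 324 and 318 CPM to 225, 211 and 178 CPM (−0.58). CDC25B was highest (−0.09) and overlapped. With the replicate number as a block 42 members were lower, although 1 of the 3 same-numbered pairs did not deviate together over genes above 3 log2 CPM (r = −0.16). Calls over all genes with this block are not given beside the 42, so it is not read as a result about the members. The count of 25 was 8 without the third cetuximab library, 16 without the second and 11 without the third untreated library. The log2FC of afatinib was more negative than that of cetuximab for 47 members. This was not counted over all genes, so no ranking of the drugs is read from it. In the direct test 0 members differed between the 2 drugs (0.0757% of all genes), with 8 at an unadjusted p below 0.05 and 0 by DESeq2. At 4 h cetuximab changed 0 members (1.43% of all genes), with 3 at an unadjusted p below 0.05, 0 by DESeq2 and 1 with the replicate block.

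Under EGF few mitotic genes of MKN1 cells were called, and the direction of the calls at 24 h depended on the scaling. After 24 h 8 members were higher (17.3% of all genes) and 1 was lower (18.5% of all genes), so the share of the members that was higher was no larger than that of all genes. CDC20 rose from 323, 372 and 327 CPM to 482, 575 and 397 CPM (0.51, SE 0.17, adjusted p = 0.0182) and PLK1 from 275, 324 and 318 CPM to 403, 482 and 374 CPM (0.46). The other risers were AURKB, MAD2L1, BIRC5, AURKA, BUB3 and HJURP, the chaperone of CENPA (0.33 to 0.22). NUSAP1, a spindle protein that bundles microtubules, was lower (−0.24), from 126.6, 128.6 and 119.6 CPM to 103.1, 106.9 and 106.6 CPM. These calls rest on the scaling. With library size alone 0 members were higher and 8 lower, the members' median turned from 0.13 to −0.08, and that of all genes moved from −0.05 to −0.24. With the replicate block 16 were higher and 2 lower. Without 1 library 2 to 8 were higher, the lowest count without the first untreated library, and NUSAP1 was lost without that library, the second untreated or the first EGF library. After 4 h EGF 3 members were lower (2.45% of all genes): HMMR from 47.4, 48.5 and 46.3 CPM to 32.8, 36.9 and 36.2 CPM (−0.43, SE 0.09, adjusted p = 0.00255), CDC25C from 15.6, 15.9 and 14.6 CPM to 11.84, 11.96 and 10.87 CPM (−0.41), and NDC80 (−0.31). With the replicate block 6 were lower. HMMR and CDC25C are the 2 members that 4 h afatinib raised in these cells, measured against the same untreated libraries. EGF + cetuximab against untreated cells at 24 h raised PLK1 (0.35) and MAD2L1 (0.23), 2 members where 9.17% of all genes were higher, and 16 with the replicate block. EGF + cetuximab differed from EGF for 0 members at 24 h (0.646% of all genes), with 0 at an unadjusted p below 0.05 and 0 by DESeq2. In Hs746T cells EGF and cetuximab changed 0 members and 0% of all genes at 24 h, with 0 members at an unadjusted p below 0.05 and 0 by DESeq2.

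**Figure D4:**
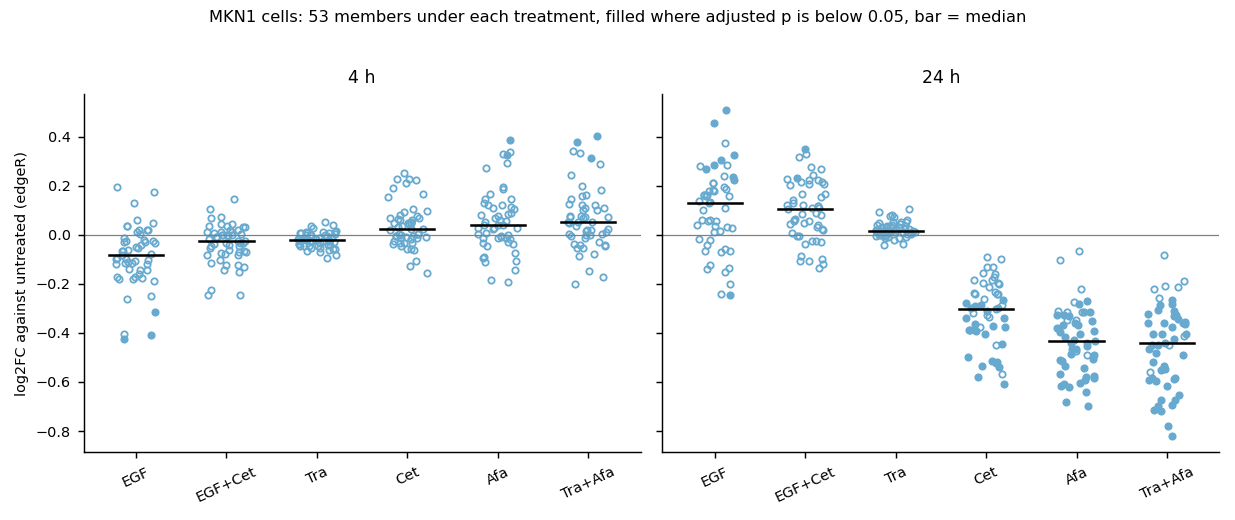
The log2FC against untreated (y axis) of the 53 members in MKN1 cells under each treatment (x axis) at 4 h and 24 h, filled where the adjusted p is below 0.05, with a bar at the median. At 24 h the medians are 0.13 for EGF, −0.30 for cetuximab, −0.43 for afatinib and −0.44 for trastuzumab + afatinib; under trastuzumab alone the points lie close to 0.

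Between the untreated libraries of 4 h and 24 h few members were called, in shares near or below those of all genes. From 4 h to 24 h without treatment 11 members were lower (16.4% of all genes) and 4 higher (17.7%) in MKN1 cells, and 5 lower (9.43%) and 4 higher (6.96%) in MKN7 cells. With library size alone these splits were 3 lower and 12 higher in MKN1 and 2 lower and 8 higher in MKN7 cells, and with the replicate block 18 lower and 7 higher in MKN1 and 7 lower and 7 higher in MKN7 cells. CCNF, a ubiquitin ligase subunit, had the largest fall in each of them (−0.53 and −0.35), and CDC25C was higher in each (0.44 and 0.37). Without the first untreated 24 h library the MKN1 counts were 7 lower and 2 higher, and without 1 library the MKN7 count of lower members was 2 to 4. When only the compared groups were fitted, 0 members were lower and 0 higher in MKN7 cells. In NCI-N87 cells 0 members passed (0.267% of all genes), with 11 at an unadjusted p below 0.05, 1 by DESeq2 and 12, all lower, with the replicate block. In Hs746T cells 0 passed (1.48% of all genes), with 4 at an unadjusted p below 0.05, 0 by DESeq2, and 1 lower and 1 higher with the replicate block.

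Other genes of the pathway, 93 in number and 89 of them tested in each line, were read from fixed lists of mitotic complexes and regulators. After 24 h afatinib 73 were lower and 5 higher in NCI-N87 cells (31% and 31.5% of all genes), with a median log2FC of −1.0. In MKN7 cells 66 were lower and 3 higher (25% and 26.6%; median −0.46), and in MKN1 cells 46 were lower and 3 higher (13.3% and 12.2%; median −0.26). Of the other kinetochore and centromere genes 30 of 32 were lower in NCI-N87 cells, with SKA3, of the complex that tracks microtubule ends, from 66.7 ± 9.49 to 15.4 ± 3.71 CPM (SD, n = 3; −2.12). Of cohesin and condensin genes 15 of 16 were lower, with sororin (CDCA5) at −2.10 and NCAPD3 at −2.02. Among the regulators of mitotic entry CDC25A, the phosphatase that also acts at the start of S phase, fell from 37.8 ± 4.85 to 4.00 ± 0.333 CPM in NCI-N87 cells (−3.24, adjusted p = 3.66e-14), with log2FC of −1.36 (MKN7) and −0.80 (MKN1) elsewhere. PKMYT1, an inhibitory kinase of CDK1, fell by 2.69 on the log2 scale in NCI-N87 cells. Of the 17 subunits and inhibitors of the anaphase-promoting complex 9 were lower and 2 higher, with a median of −0.46, and the 2 with the largest fall were its inhibitor FBXO5 (−1.66) and its enzyme UBE2S (−1.47). Of the 11 measured DREAM and MYB-MuvB genes 9 were lower and 2 higher, with MYBL2, the activator in MYB-MuvB, at −2.67 and RBL1, a pocket protein, at −2.02; RBL2, another pocket protein of DREAM, was higher (1.03) and was picked with its value known. Of the 3 NF-Y subunits NFYA alone was lower in NCI-N87 cells (−0.52). In Hs746T cells 0 of the 89 passed. After 4 h 15 were higher and 6 lower in NCI-N87 cells (9.06% and 9.10% of all genes), and 18 were higher and 7 lower in MKN7 cells (10.1% and 12.1%).

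Promoter letters were also set beside the size of the fall. Members whose window holds TTTGAA or TTTAAA had a median log2FC of −1.02 after 24 h afatinib in NCI-N87 cells (35 members), and those without it of −1.06 (9 members). The 23 members with at least 2 CCAAT boxes had a median of −0.86 and the other 21 of −1.11. Of the 4 printed promoters, CDK1 (log2FC −1.82) has a single CCAAT box and CCNB2 (−0.40) has 4 boxes. The other pair went the other way: TOP2A, with 4 boxes, fell more in NCI-N87 cells than PLK1, with a single box. In MKN7 cells the medians for CCAAT boxes were −0.64 and −0.74, and in MKN1 cells −0.38 and −0.49. No test was made of these differences.

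**Figure D5:**
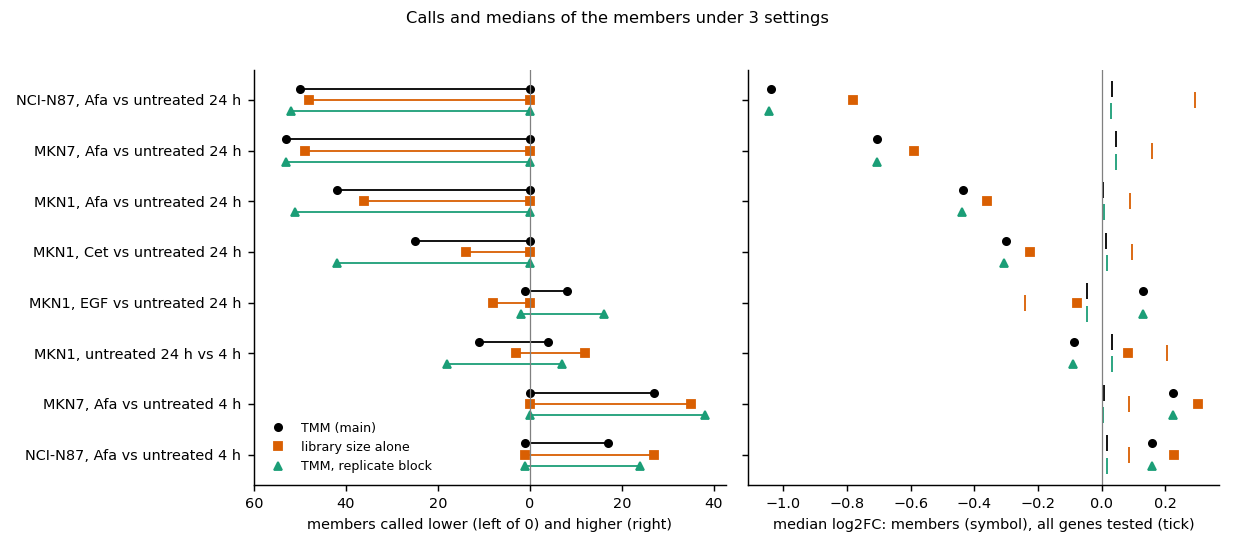
Number of members called lower and higher (left panel) and median log2FC of the members and of all genes tested (right panel) in 8 comparisons (y axis) under TMM scaling, library size alone and TMM with the replicate number as a block. For 24 h afatinib in NCI-N87 cells 50, 48 and 52 members are lower, and library size alone moves the median of all genes to 0.29 and that of the members to −0.78; only EGF at 24 h and the untreated time comparison in MKN1 cells change the sign of the members' median.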

How the data were processed

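Poly(A) RNA of each culture was sequenced from directional, paired-end libraries. Per the submitters' processing notes, reads were trimmed with Trim Galore and aligned with STAR to hg38; versions, the counting program, its strand setting and its annotation are not given in the sources used here. The authors deposited raw counts per Ensembl gene for each library, 25832557 to 69434151 in total. Here symbols came from GENCODE release 29; 8404 of the 65217 identifiers, with 0.0422% of counts, were not in it. The floor of 3 counts covers counting error only.

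Each line was fitted with all its libraries (R 4.3.3, edgeR 4.0.16, quasi-likelihood test, TMM scaling, filterByExpr with a minimum of 10 counts and a total of 15, Benjamini-Hochberg adjustment over all genes tested). Calls needed an adjusted p below 0.05 and, for the fold limit, a log2FC beyond 1 in size. Differences between lines came from a joint fit of all libraries. CPM are scaled by TMM, and RPKM divide them by the union of exons. The members, their roles and the pathway lists were chosen with earlier results of these data known; the difference between time points and the line differences at 4 h were added after the data had been seen. Genes printed per library were the preset members CDK1, CCNB1, PLK1, AURKB, CDC20, TOP2A, MKI67, FOXM1 and BUB3 and, in each comparison, the members with the lowest and highest log2FC; those named beyond these, such as KIF20A, NDC80, ASPM, CENPF, AURKA and HMMR, were chosen after their values were seen. Replicates are separate cultures as far as the series' design text says, and p-values measure the spread between these samples.

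In 54 of 56 comparisons each same-numbered pair of libraries deviated together from its group means (correlations over 0.1; all correlations −0.02 to 0.71, median 0.35), so the replicate number was also fitted as a block; the pairing comes from the data, not from a label. Over genes above 3 log2 CPM the median was 0.81 and the lowest −0.2, and 5 comparisons had a pair at or under 0.1, 4 of them in MKN1 cells at 24 h (cetuximab against untreated −0.16, the combination against untreated −0.11). Replicates of a group differed by more than sampling noise (at least 6.36 times the Poisson variance). Alternatives were library size alone, median-of-ratios size factors, no filter, 10 counts in every library, only the compared groups, DESeq2 1.42.0 and leaving out each library. The test was checked on simulated counts of the NCI-N87 design, with few genes changed and no pairing of replicates. That check cannot speak for the scaling where many genes change, nor for the replicate block.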

Additional observations from a re-analysis of the deposited data

Results flagged for a closer look

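The afatinib effect on the mitotic genes differed between cell lines by a test of the difference itself. At 24 h it differed for 22 members between NCI-N87 and MKN7 cells, 21 lower and 1 higher, against 12.7% and 8.69% of all genes. It differed for 4 between MKN7 and MKN1 and for 14 between MKN1 and Hs746T cells. These were all lower, against 3.94% and 2.41% of all genes. For MKN7 against MKN1 cells 900 of 22832 genes were lower and 837 higher, so in either direction the members' share was near that of all genes. In the latter pairs of lines the counts were 0 and 0 when only the compared groups were fitted. At 4 h it differed for 1 member between NCI-N87 and MKN7 cells (ECT2, lower, against 0.499% of all genes). It differed for 2 between MKN7 and MKN1 cells (CDC25C and AURKA, higher, against 0.622% of all genes). The effect also differed between 24 h and 4 h, for 51 members in NCI-N87, 53 in MKN7 and 27 in MKN1 cells. In each case the lower value was at 24 h, against 20.5%, 9.28% and 1.43% of all genes. The MKN1 count was 0 when only the compared groups were fitted. The tests of time points and of the lines at 4 h were added after the data had been seen.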

How the results depend on the processing

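The counts of members lowered by 24 h afatinib in NCI-N87 (48 to 52) and MKN7 cells (49 to 53) stayed within 1.5 times their main value under all alternatives run. With library size alone in place of TMM, the members higher at 4 h in NCI-N87 cells went from 17 to 27, those past the fold limit at 24 h from 32 to 14 in NCI-N87 and from 4 to 2 in MKN7 cells, those lowered by trastuzumab + afatinib in MKN1 cells from 44 to 28, by cetuximab from 25 to 14, by EGF at 4 h from 3 to 7 and raised by 4 h afatinib from 2 to 4. The EGF median at 24 h reversed from 0.13 to −0.08, with 8 lower and 0 higher in place of 1 and 8. Untreated MKN1 cells gave 3 lower and 12 higher over time, MKN7 cells 2 and 8, and 3 members had a smaller fall in NCI-N87 than in MKN7 cells. Without a filter the counts were 1 (MKN1, 4 h afatinib), 7 (MKN1, lower over time), 2 (MKN7, lower over time), 0 lower and 4 higher (EGF at 24 h), 16 (cetuximab), 17 (MKN1, time difference), and for the line differences 13 lower and 0 higher, 1 and 9 at 24 h and 1 (MKN7 against MKN1) at 4 h. With 10 counts in every library they were 21 (NCI-N87, fold limit), 3 (MKN7, lower over time), 2 (EGF at 24 h, lower) and 3 (NCI-N87 against MKN7, higher). With only the compared groups they were 23 (MKN1, 24 h afatinib), 0 (MKN1, 4 h afatinib), 0 lower and 3 higher (EGF at 24 h), 15 (cetuximab), 0 and 0 (MKN7 over time), 0 (MKN1, time difference) and 0 for MKN7 against MKN1 and for MKN1 against Hs746T at 24 h. DESeq2 gave 1 (NCI-N87, lower over time) and 2 (NCI-N87 against MKN7, higher).

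With the replicate number as a block the counts were 12 (NCI-N87, lower over time), 7 (MKN7, higher over time), 18 lower and 7 higher (MKN1 over time), 1 and 1 (Hs746T over time), 4 (MKN1, 4 h afatinib), 6 (EGF at 4 h), 2 lower and 16 higher (EGF at 24 h), 42 (cetuximab), 47 (MKN1, time difference), 33 lower and 2 higher, 21 and 43 (line differences at 24 h) and 2, 12 and 6 (line differences at 4 h). In the comparisons of EGF + cetuximab at 24 h and cetuximab at 4 h with untreated cells it gave 16 and 1 higher, in place of 2 and 0. Calls over all genes were set beside the block counts for the line differences alone, where they rose too. The other block counts are not read as results about the members. Leaving out 1 library at a time gave 11 to 16 (NCI-N87, 4 h, higher), 21 to 33 and 2 to 9 (fold limit, NCI-N87 and MKN7), 2 to 4 (MKN7, lower over time), 27 to 44 (MKN1, 24 h afatinib), 0 to 2 (MKN1, 4 h), 28 to 45 (MKN1, trastuzumab + afatinib), 7 to 9 lower and 2 to 4 higher (MKN1 over time), 0 to 2 lower and 2 to 8 higher (EGF at 24 h), 8 to 22 (cetuximab), and 6 to 36 (MKN1, time difference). Leaving out every library of 1 replicate number gave 8 to 16 lower and 0 to 1 higher, 0 to 5 and 1 to 15 (line differences at 24 h) and 0 to 0 and 0 to 1 (4 h). The lowest MKN1 counts at 24 h, 27, 28 and 8, came without the third afatinib, trastuzumab + afatinib and cetuximab library. The cause of these moves was not tested, apart from the settings' own construction.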
